A study of Mus musculus with 20 samples.

Results

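The epithelial keratins described here are 7 genes of the 24411 in the count table, namely Krt7, Krt8, Krt18, Krt19, Krt20, Krt23 and Krt80. Their rows were taken by name, and Krt20 was picked for this set on its large rise in mutant kidneys. Its difference between mutants and controls is therefore given as values without a test. Counts of members in that comparison, and in how it differs between sexes, are over the other 6. All 7 were found in the table, beside 41 other genes named Krt and a number.

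One kidney RNA library per mouse was sequenced from 20 mice killed at P125 (P, postnatal day), 5 in each of 4 groups defined by sex and genotype. Mutants carried floxed Pkd2 alleles (Pkd2 fl/fl) with the transgenes Pax8 rtTA and TetO Cre, and controls were Cre-negative mice from the same 3 litters, called A, B and C here. Mutants and controls alike received doxycycline (DOX) by intraperitoneal injection at 50 mg/kg, with the first dose at P27 and the last at P29. The Pax8 promoter drives the DOX-dependent activator in renal tubule segments, so the other cells of a whole kidney keep Pkd2, and which transgenes each control carried is not given in the sources used here. Each library came from a separate mouse, so p-values measure the spread between mice.

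Keratins are the intermediate filament proteins of epithelia. A type I keratin pairs with a type II keratin, so that a filament needs both. Krt8 (type II) and Krt18 (type I) are the first pair made in simple epithelia. Krt7 (type II) and Krt19 (type I) are known from ducts, collecting ducts and urothelium, and Krt20 (type I) from gut epithelium and the umbrella cells of the urothelium. Krt23 (type I) is known as a stress-responsive keratin and Krt80 (type II) as a keratin found near desmosomes. In the healthy kidney simple keratins mark distal segments and collecting ducts more than the proximal tubule, and several of them are known to appear in injured tubules.

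The 4 genes Krt7, Krt8, Krt18 and Krt80 lie in the keratin cluster of mouse chromosome 15 and the 3 genes Krt19, Krt20 and Krt23 in that of chromosome 11 (GENCODE vM21, GRCm38, which is the mm10 assembly). Krt8 (chr15:101996698-102004482, minus strand) and Krt18 (chr15:102028180-102032027, plus strand) are neighbours, and Krt20 (chr11:99428403-99438150) and Krt23 (chr11:99477974-99493137) share the minus strand. The values are counts over a whole gene and do not separate exons or isoforms. Of the 50-base words in the annotated transcripts of Krt8, 29.7% also occurred in the pseudogene Krt8-ps or in Gm36026, a gene on the other strand, against 2.74% at most for the other members and 0% for Krt19, Krt20 and Krt23. How reads shared with such copies were counted is not given in the sources used here, so the Krt8 counts are uncertain to that extent.

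Promoter sequence was available for 5 of the 7 members (RefSeq, GRCm38.p6). The 250 bases before the RefSeq start are shown for Krt20, the member with the widest difference between mutants and controls, and for the pair Krt8 and Krt18, which were called together. Capitals mark every match, on either strand, to the TATA box letters TATAAA, the TEAD letters GGAATG, the AP-1 letters TGANTCA and the GC box letters GGGCGG.
Krt20 (chr11:99438154-99438403, minus strand): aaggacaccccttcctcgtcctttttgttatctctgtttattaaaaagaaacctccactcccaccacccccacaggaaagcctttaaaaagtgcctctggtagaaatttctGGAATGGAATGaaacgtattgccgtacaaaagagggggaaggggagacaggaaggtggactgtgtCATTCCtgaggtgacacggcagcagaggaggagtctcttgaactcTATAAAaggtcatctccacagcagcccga
Krt8 (chr15:102004343-102004592, minus strand): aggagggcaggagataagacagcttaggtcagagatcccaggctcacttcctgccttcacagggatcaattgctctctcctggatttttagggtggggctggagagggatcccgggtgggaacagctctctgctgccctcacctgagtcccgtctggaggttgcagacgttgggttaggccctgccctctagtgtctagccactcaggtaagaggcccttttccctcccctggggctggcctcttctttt
Krt18 (chr15:102027966-102028215, plus strand): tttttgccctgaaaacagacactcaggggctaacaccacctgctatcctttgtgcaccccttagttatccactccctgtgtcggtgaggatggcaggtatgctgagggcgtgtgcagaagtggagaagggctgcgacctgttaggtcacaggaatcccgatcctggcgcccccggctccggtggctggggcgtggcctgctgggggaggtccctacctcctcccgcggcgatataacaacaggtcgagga
The Krt20 window held 1 TATA match, 29 to 24 bases before the start, and 3 TEAD matches, of which the pair furthest from the start overlap by 1 base. Over all 32851 promoter windows of the same length, 12.4% held TATAAA and 12.6% held GGAATG. The windows of Krt8, Krt18 and Krt23 held none of the 4 motifs, and that of Krt7 held 4 GC box matches, a motif present in 32.7% of all windows; TGANTCA, in 6.75% of all windows, was in none of the 5. A match is a string of letters and not a binding site. The starts are those of RefSeq, so the windows of Krt8 and Krt18 reach past the gene ends that GENCODE gives above and hold the first bases of those gene intervals.

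Libraries held 11307741 to 19324073 counts, and Pkd2, the targeted gene, was lower in every mutant than in every control of its sex, at 93.4 to 181 CPM (counts scaled to libraries of equal size, 1000000 counts) in female mutants against 193 to 306 in female controls and 110 to 133 in male mutants against 250 to 332 in male controls. The defining kidney markers were present in every group, among them the proximal tubule transporter Slc34a1 (at least 1943 CPM), the loop protein Umod (at least 3110 CPM), the water channel Aqp2 of principal cells (at least 90.1 CPM) and the podocyte gene Nphs1 (at least 8.5 CPM). One library stood apart, that of female mutant 4: it had 14850 genes with a count and 76 genes with exactly 1 count, against 16776 to 17724 and 708 to 859 in the other mice. Female comparisons that it changes are therefore also given without it. The kidney-to-body weight ratio (KBW, 1 kidney over body weight) was 1.22% to 2.15% in male mutants, 0.836% to 1.46% in female mutants, 0.599% to 0.896% in male controls and 0.555% to 0.672% in female controls.

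Per kilobase of its longest protein-coding transcript, Krt8 had the highest mean level of the 7 in every group, with means of 59 CPM per kilobase in male controls and 52.9 in female controls (SD 2.62 and 5.27, n = 5 each). Krt7 followed in controls, at 22.8 ± 3.83 and 35.3 ± 1.83 CPM per kilobase (SD), and then Krt18, at 13.6 ± 4.35 and 20.1 ± 4.79. In controls of either sex these 3 did not overlap each other in any mouse. Krt19, Krt80 and Krt23 came next in controls with means between 1.49 and 3.41 CPM per kilobase, and the ranges of neighbours in that order overlapped. Krt20 was last, at 0.0664 CPM per kilobase in male and 0.18 in female controls. In mutants of both sexes Krt20 came after Krt8, Krt18, Krt7 and Krt19, at 5.34 ± 3.85 and 4.15 ± 3.11 CPM per kilobase (SD, n = 5), above Krt80 and Krt23 in mean but overlapping both in range.

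**Figure D1:**
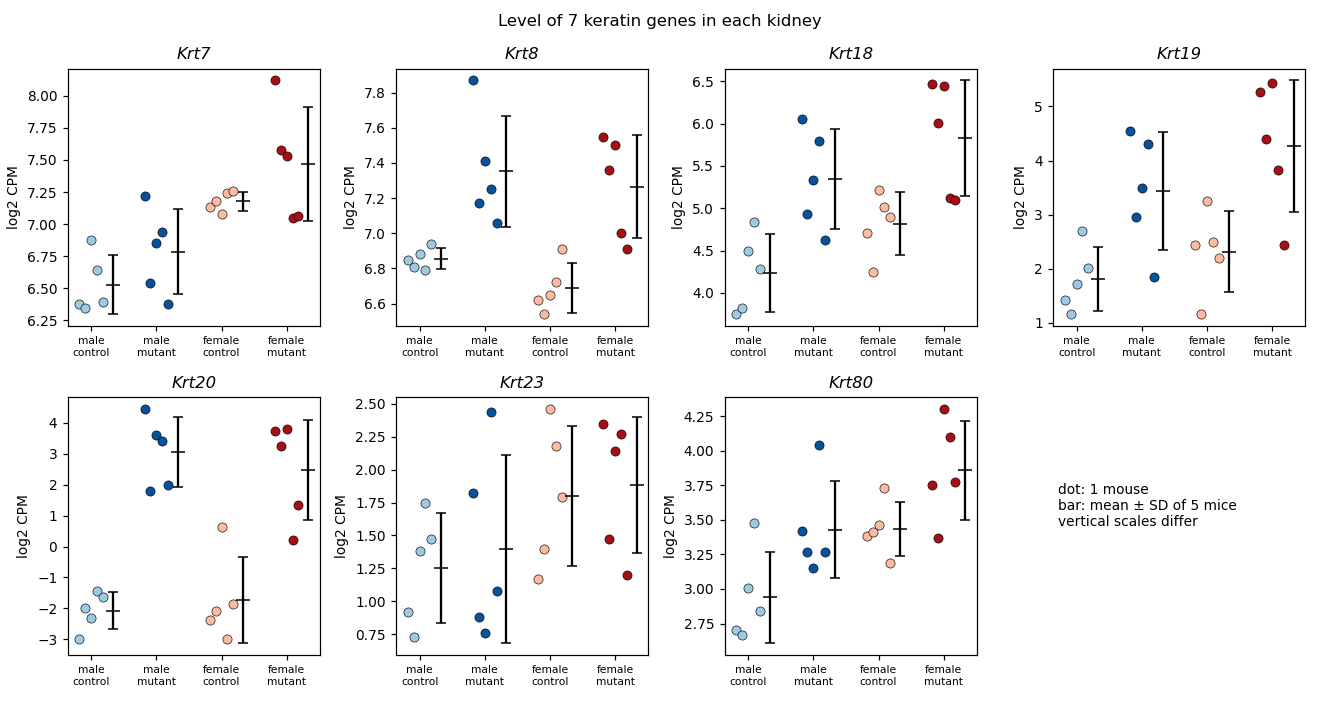
Level of each keratin gene in each mouse, as log2 CPM (vertical axis, scales differ between panels) in the 4 groups; dots are mice and bars the mean and SD of 5 mice. Krt20 separates male mutants from male controls entirely, Krt8 likewise, while Krt23 overlaps in both sexes.

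The first comparison asked how the keratins of mutant kidneys differed from those of controls after late Pkd2 loss. Over all 20 mice, Krt8, Krt18 and Krt19 rose in mutants, by 0.57 ± 0.102, 1.07 ± 0.209 and 1.86 ± 0.351 on the log2 scale (± SE), and Krt20 was higher by 5.13 ± 0.628, the difference it was picked for. Krt7, Krt23 and Krt80 were not called. Thus 3 of the 6 members tested passed an adjusted p of 0.01 (edgeR quasi-likelihood test, Benjamini-Hochberg over all 14191 genes tested), all upward, where 10.0% of all genes were called higher in mutants. All 6 had a positive log2 fold change, with a median of 0.51 against -0.01 for all genes. The members were chosen with earlier results of these data known, so all genes are not a neutral yardstick for them. In bulk tissue, more cells that make a keratin and more keratin RNA per cell cannot be told apart.

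Krt20 was nearly absent from controls. Male controls 1 to 5 held 0, 2, 1, 3 and 3 Krt20 counts, and male mutants 1 to 5 held 382, 49, 184, 159 and 68. On the CPM scale the male controls reached at most 0.243 and the male mutants lay between 3.36 and 21.6, so the groups were far apart. Female controls 1 to 5 held 1, 2, 24, 0 and 2 counts, and female mutants held 265, 158, 276, 12 and 41. Female control 3, at 1.41 CPM, lay above female mutant 4, at 1.03 CPM, and was the only control to reach any mutant.

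Counts pooled over each group gave a Krt20 ratio of mutants to controls of 82.1 in males, with an exact 95% counting interval of 43.1 to 180 for 842 against 9 counts. In females the ratio was 24.4 (16.9 to 36.7, 752 against 29 counts), and 112 (47.7 to 345) without female control 3. These intervals cover counting error only and not the spread between mice. The fitted log2 differences were 6.19 in males and 4.51 in females, the latter 4.91 without female mutant 4 and 6.49 without female control 3. With so few counts in controls, a fitted value also depends on the small count that the fit adds to each library.

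Krt19, a type I keratin that lacks the usual tail domain, had the next largest difference. Its levels in male controls 1 to 5 were 2.57, 2.11, 3.15, 6.33 and 3.94 CPM, and in male mutants 23.3, 7.67, 11.1, 19.7 and 3.47 CPM. Female controls 1 to 5 had 5.29, 2.13, 9.43, 5.55 and 4.47 CPM, and female mutants 38.3, 20.9, 43, 14 and 5.28 CPM. In each sex 4 of 5 mutants lay above every control, and the remaining one was the mutant of litter C. For males the log2 fold change came to 1.67 ± 0.432 and for females to 2.05 ± 0.487 (SE), with adjusted p of 0.0192 and 0.036 (edgeR), and 7.3e-04 over both sexes. The size of the male differences depended on male mutant 1: without it, the log2 fold change in males was 1.04 for Krt19, 0.69 for Krt18 and 0.33 for Krt8, in place of 1.67, 1.07 and 0.54.

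Krt18, the type I partner of Krt8, measured 13.4, 14, 22.3, 28.5 and 19.3 CPM in male controls 1 to 5 and 66.1, 30.4, 40, 55.5 and 24.5 CPM in male mutants. Female controls had 26.1, 18.9, 37.2, 32.4 and 29.8 CPM and female mutants 88.8, 64.1, 87.2, 34.8 and 34.2 CPM. Of the mutants, 4 of 5 males and 3 of 5 females lay above all controls of their sex. The log2 fold change was nearly the same in both, at 1.07 ± 0.258 and 1.08 ± 0.298 (SE), with adjusted p of 0.0141 and 0.0609 (edgeR), and 1.0e-03 over both sexes.

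Krt8, the type II partner, varied little among male controls. Male controls 1 to 5 had 115, 112, 118, 110 and 123 CPM, and male mutants 234, 144, 169, 153 and 134 CPM, with no overlap. Female controls had 98.5, 93, 100, 106 and 120 CPM and female mutants 187, 164, 180, 128 and 120 CPM, so that 4 of 5 mutants were above all controls. The coefficient of variation over mice was 4.35% in male controls but 24% in male mutants. Mutants differed by a log2 fold change of 0.54 ± 0.133 among males and 0.62 ± 0.153 among females (SE), with adjusted p of 0.0154 and 0.0411 (edgeR), and 4.4e-04 over both sexes.

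Krt7, the type II keratin of ducts, ranged from 81.4 to 118 CPM in male controls, 82.9 to 149 in male mutants, 135 to 153 in female controls and 133 to 278 in female mutants. Its log2 fold change over both sexes was 0.29 (95% interval 0.06 to 0.51, adjusted p = 0.0722, edgeR). Krt80 ranged from 6.26 to 11 CPM in male controls and 8.78 to 16.3 in male mutants, and from 9.01 to 13.2 and 10.2 to 19.5 in females. Its log2 fold change was 0.45 (0.20 to 0.69) with an adjusted p of 0.0133 (edgeR), just short of the threshold. Krt23 ranged from 1.53 to 3.25 CPM in male controls and 1.57 to 5.28 in male mutants, of which 2 of 5 lay above every control, and from 2.12 to 5.36 and 2.17 to 4.97 CPM in females. It had a log2 fold change of 0.12 (-0.36 to 0.60, adjusted p = 0.771, edgeR).

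**Figure D2:**
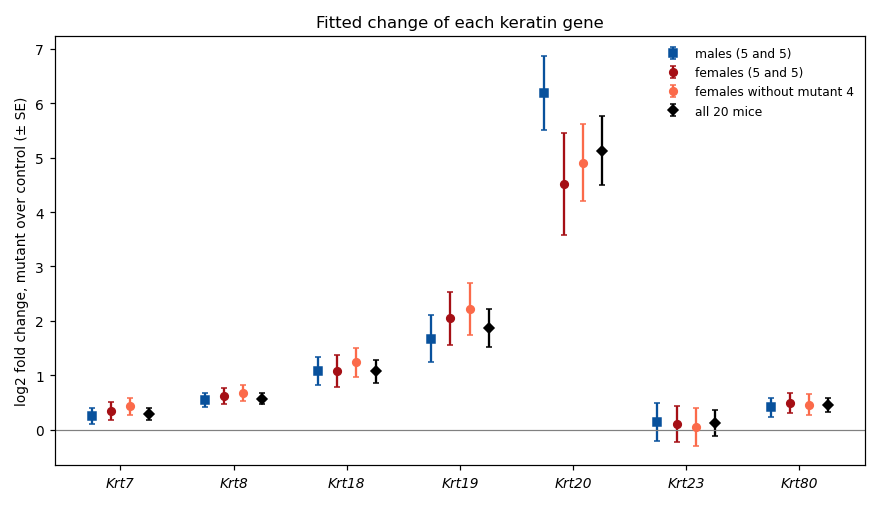
Log2 fold change of mutants over controls (vertical axis, ± SE from edgeR) of each keratin gene in males, females, females without mutant 4 and all 20 mice. Krt18, Krt19 and Krt8 lie above 0 in every fit and Krt20, picked on this difference, lies highest, while Krt23 stays within its error of 0.

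Within a sex no member was called at an adjusted p of 0.01 (edgeR). Among male mice 0 of 6 passed, where 5.25% of all 14010 genes were called higher in mutants, and 4 of 6 were higher at an unadjusted p under 0.05, against 17.7% of all genes; DESeq2 called 1 of 6, Krt8, and 8.84% of all genes. Among females 0 of 6 passed, against 0.457% of 14439 genes, and 4 of 6 were higher at an unadjusted p under 0.05, against 12.4% of genes; DESeq2 called 3 of 6, Krt8, Krt18 and Krt19, and 4.45% of all genes. Without female mutant 4, still 0 of 6 passed, while the share of all genes called higher was 4.68%; Krt8, Krt18 and Krt19 then had log2 fold changes of 0.68, 1.24 and 2.22 with adjusted p of 0.0143, 0.0132 and 0.0142 (edgeR). Over both sexes the 3 calls were made again when any 1 mouse was left out.

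The difference between sexes in the effect of genotype was tested by the sex-by-genotype term. Krt20 was picked on the difference that this term compares between sexes, so it is left out of the counts. None of the other 6 members was called by edgeR or by DESeq2. By this term edgeR called 0% of 14820 genes and DESeq2 called 0.122%. Of the 6, 0 had an unadjusted p under 0.05, against 4.17% of genes. For Krt8 the term was -0.05 (95% interval -0.46 to 0.36) and for Krt18 0.02 (-0.82 to 0.85) on the log2 scale, male minus female effect. For Krt19 it was -0.34 (-1.73 to 1.05), so a difference of several fold between sexes lies within the error. The Krt20 value was 1.70, with a wider interval (-1.23 to 4.63), and is not counted as a test. Without female mutant 4 the terms of Krt8, Krt18 and Krt19 were -0.11, -0.14 and -0.50, none called, and that of Krt20 was 1.33.

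The difference between mutants and controls was also taken within each of the 3 litters, as values without a test. In litter A the log2 CPM of mutants minus controls was 0.68, 1.47 and 2.32 in males for Krt8, Krt18 and Krt19 (2 mutants and 3 controls) and 0.93, 1.76 and 2.82 in females (1 and 1). In litter C, with 1 mutant and 1 control of each sex, it was 0.12, 0.34 and -0.18 in males and 0.00, 0.20 and 0.24 in females. Litter B lay between, at 0.54, 0.72 and 1.21 in males and 0.65, 1.03 and 2.24 in females. For Krt20 the difference was positive in every litter and sex, from 3.19 to 6.12. Litter C holds too few mice to test by itself, and without its 4 mice the log2 fold changes over both sexes were 0.70, 1.26 and 2.25, with the same 3 members called.

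Since a filament needs both partners, the ratio of Krt8 to Krt18 counts was compared within libraries. The log2 ratio in male controls 1 to 5 was 3.11, 3.0, 2.4, 1.95 and 2.67, and in male mutants 1.83, 2.24, 2.08, 1.46 and 2.45. In female controls it was 1.91, 2.30, 1.43, 1.71 and 2.02, and in female mutants 1.08, 1.35, 1.05, 1.88 and 1.81. The ratio was thus lower on average in mutants, by 0.62 in males and 0.44 in females on the log2 scale, with overlap in both sexes. Two-sided exact permutation tests over all splits of the 10 mice gave p = 0.0635 and p = 0.0873 (n = 5 per group; 0.00794 is the smallest this design allows), so neither passed 0.05. Taken litter by litter (A, B, C), mutants differed by -0.80, -0.18 and -0.22 in males and by -0.84, -0.38 and -0.20 in females, below 0 in each. Their mean was -0.40 in males and -0.47 in females, with p = 0.0833 and p = 0.1 when genotype was permuted within litters (exact, two-sided; the smallest possible are 0.0167 and 0.025). Without female mutant 4 the female difference was -0.55 (exact permutation p = 0.0556). Without male mutant 5 or male control 4 the male p was 0.0476 or 0.0238, by the same exact permutation. With each mouse left out in turn, this p ranged from 0.0238 to 0.127 in males. In females it ranged from 0.0556 to 0.19, so leaving a mouse out also raised it.

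**Figure D3:**
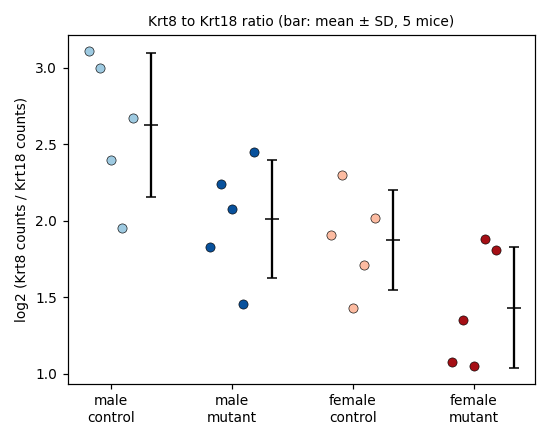
Log2 ratio of Krt8 to Krt18 counts in each mouse (vertical axis) in the 4 groups; dots are mice and bars the mean and SD of 5. Mutant means lie below control means in each sex, at 2.01 against 2.63 in males and 1.44 against 1.87 in females, with overlapping dots.

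Males and females of the same genotype were compared next. Krt7 was lower in male than in female controls: male controls 1 to 5 had 83.1, 81.4, 118, 99.9 and 84 CPM, and female controls 140, 144, 135, 151 and 153 CPM, with no overlap. The log2 difference, male minus female, was -0.59 ± 0.113 (SE, adjusted p = 0.00199, edgeR), and Krt7 was the only member called of 6 tested, where 9.02% of 14123 genes were called lower in males. This call was lost without male control 4 or 5 or female control 1 or 5, with adjusted p of 0.0104 to 0.0124 (edgeR). Krt20 did not pass the filter on low counts in controls.

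Among mutants, 0 of 7 members were called between sexes (edgeR), against 1.84% of 14416 genes lower in males, and 2 of 7 were lower in males at an unadjusted p under 0.05, against 14.6% of genes; DESeq2 called 1, Krt7, and 5.24% of genes lower in males. Krt7 measured 149, 93.2, 115, 123 and 82.9 CPM in male mutants and 278, 192, 184, 133 and 133 CPM in female mutants, a log2 difference of -0.74 ± 0.164 (SE, adjusted p = 0.0143, edgeR). Without female mutant 4 it was called, at an adjusted p of 0.00365 (edgeR), where 2.72% of genes were called lower in males. Krt19 differed by -0.91 (95% interval -1.63 to -0.18, adjusted p = 0.126) and Krt20 by 0.33 (-0.81 to 1.46, adjusted p = 0.737), both by edgeR and neither called. Without female mutant 4 these were -1.06 and 0.08, again not called, and without male mutant 1 the Krt20 difference was 0.00. Krt8 differed by 0.05 (-0.23 to 0.34).

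Whether keratin levels went with cystic enlargement was examined by the slope on KBW among the 10 mutants, with sex in the model. No gene was called at an adjusted p of 0.01 (edgeR), 0% of 14416, and so 0 of 7 members. At an unadjusted p under 0.05, 5 of 7 had a rising slope, against 11.5% of all genes. DESeq2 called 2, Krt8 and Krt20, and 3.08% of all genes with a rising slope. Krt20 is in both counts and was picked for its rise over controls in these same mutants. The Krt20 slope was 3.68 ± 0.72 log2 units per percentage point of KBW (SE, adjusted p = 0.0336, edgeR), that of Krt8 0.82 ± 0.198 (adjusted p = 0.0492) and that of Krt18 1.5 ± 0.428 (adjusted p = 0.0766). Krt19 and Krt7 had slopes of 2.08 and 0.90, with adjusted p of 0.163 and 0.103 (edgeR). Krt23 and Krt80 had slopes of 0.34 and -0.07, within their errors of 0.687 and 0.404. Without the sex term the slopes of Krt20, Krt8, Krt18 and Krt19 were 2.44, 0.54, 0.40 and 0.45, and that of Krt7 turned to -0.15, none called (edgeR). The 2 mutants farthest from the median KBW were male mutant 1 and female mutant 4. With both left out, the Krt20 and Krt8 slopes were 3.54 and 0.65 (adjusted p = 0.638 for each, edgeR). With only female mutant 4 left out they were 3.14 and 0.85 (adjusted p = 0.121 and 0.139, edgeR). With only male mutant 1 left out they were 4.38 and 0.67 (adjusted p = 0.204 and 0.257, edgeR).

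By mouse, male mutant 1 had the highest KBW (2.15%) and the highest Krt20 and Krt8 of all 20 mice, at 21.6 and 234 CPM. Female mutant 4 had the lowest KBW of the mutants (0.836%) and the lowest Krt20 of the mutants. Male mutant 5 departed from that order, with a KBW of 1.71% beside 3.87 CPM of Krt20 and the lowest Krt18 and Krt19 of the mutants.

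**Figure D4:**
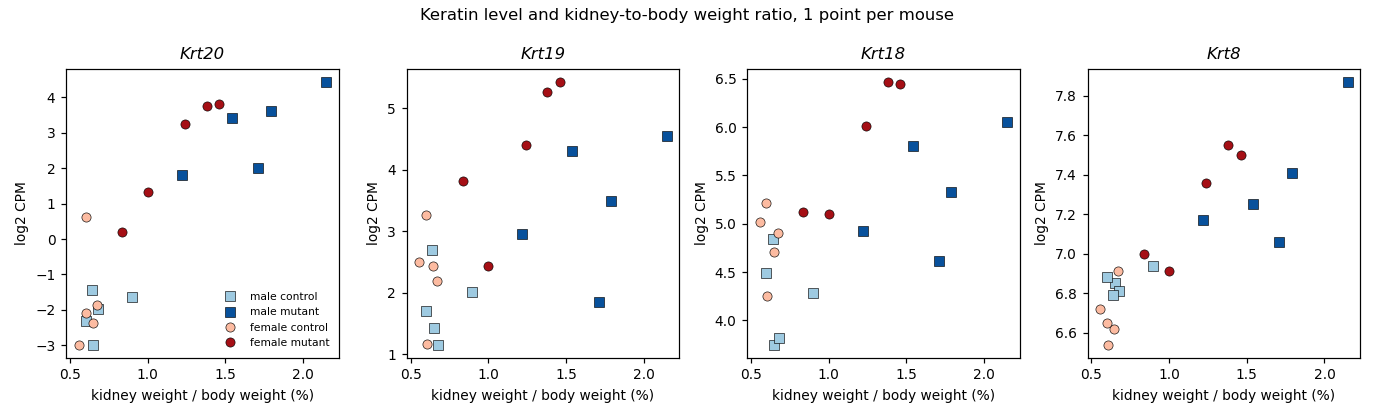
Log2 CPM of Krt20, Krt19, Krt18 and Krt8 (vertical axes) against KBW in percent (horizontal axes), 1 point per mouse, squares male and circles female, dark mutants and pale controls. Krt20 is highest in the mutant with the highest KBW (2.15%) and lowest, among mutants, in the one with the lowest (0.836%).

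Genes with the most similar pattern to each member were found by Pearson correlation of log2 CPM over the 20 mice, among 14819 other genes; mice of a group share genotype and sex, so the correlation of deviations from group means is given too. Krt19 had Krt18 as its nearest gene (r = 0.96, and 0.93 over deviations), followed by Muc1, a cell-surface mucin (0.95 and 0.94), and Tmem158 (0.95 and 0.96). Krt18 was nearest to Muc1 (0.97 and 0.95), Arhgdib and Plet1. For Krt20 the nearest were Lcn2, a secreted kidney injury marker (0.97 and 0.85), Uhrf1, which maintains DNA methylation (0.97 and 0.83), and the chemokine Cxcl1 (0.96 and 0.81). Krt20 was picked for its rise in mutants, so over all mice that choice itself brings rising genes near it. Over deviations its 3 nearest genes were others, at 0.88 to 0.94. Krt8 was nearest to Tnfrsf12a, the receptor of TWEAK (0.96 and 0.92), to F3, which encodes tissue factor (0.96 and 0.95), and to S100a11. Krt7 was nearest to Tspan8, Dlgap4 and the tight junction gene Cldn7 (0.94 to 0.96 over levels). The nearest genes of Krt23 (Syt8, Gcnt3 and Tyro3) reached 0.78 to 0.86, and those of Krt80 (Ptpn14, Sbspon and Ppl) 0.87 to 0.88.

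Krt8 and Krt18, although they form filaments together, were less alike over the mice, with r = 0.76 over levels and 0.76 over deviations, and 600 genes were more like Krt8 than Krt18 was. Krt23 and Krt80 correlated with each other at 0.72 over both measures and with Krt20 at 0.23 and 0.48 over levels. Without female mutant 4 the correlations named for nearest genes over levels differed by at most 0.02, as rounded, from those above.

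Of the other 41 keratin genes, 21 had no count in any mouse and 36 did not pass the filter over all 20 mice. The 5 tested were Krt5, Krt14 and Krt15, which are known from basal cells, Krt10 of cornifying epithelium and Krt222. None was called (edgeR), 3 were higher at an unadjusted p under 0.05, against 19.7% of all genes, and DESeq2 called 1, Krt222, and 12.1% of all genes. Their log2 fold changes were 1.01 for Krt5 (adjusted p = 0.0697), 0.86 for Krt15 (0.0344), 0.71 for Krt222 (0.0213), 0.66 for Krt14 (0.317) and 0.01 for Krt10 (0.945), all by edgeR. Krt5, Krt14 and Krt10 were also the only 3 tested of 10 squamous and skin markers.

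Partners and neighbours of the filament were given by a list of 24 genes of other filaments, plakins and desmosomes, 19 of which were tested. Over both sexes 4 rose and 1 fell, with a median log2 fold change of 0.14. The 4 were Vim, the mesenchymal filament protein vimentin (1.02 ± 0.19), the lamins Lmnb1 and Lmna (0.97 ± 0.138 and 0.40 ± 0.0791), and the plakin Ppl (0.59 ± 0.157), with adjusted p from 6.5e-05 to 0.0095 (edgeR). Pkp4 fell by 0.29. The desmosomal genes Dsp, Jup and Dsg2 had log2 fold changes of 0.15, 0.10 and -0.01, none called.

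Of 18 pan-epithelial genes, 5 rose and none fell, with a median of 0.10. Among them were the tubule transcription factor Pax8 (0.47), the epithelial factors Elf3 (0.93) and Klf5 (1.13), and the claudin Cldn4 (0.88). Epcam and Cdh1, which mark epithelial cells broadly, differed in mean log2 CPM by 0.12 in males and -0.02 in females. Set against that mean, the Krt18 difference was 0.99 in males and 1.03 in females and that of Krt19 1.51 and 1.98.

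Markers of nephron segments did not rise with the keratins. Of all 14191 genes tested over both sexes, 831 were called lower in mutants. Of 12 collecting duct principal cell markers 4 fell, among them Tfap2b (-0.54), Scnn1g (-0.30) and Aqp3 (-0.38), and none rose. Of 10 intercalated cell markers 8 fell, among them Slc4a1 (-1.26), Slc4a9 (-0.88) and Atp6v0d2 (-0.52), and in 10 markers of the loop and distal tubule 9 fell, among them Slc12a3 (-1.11), Kcnj1 (-0.69) and Pvalb (-1.26). Proximal tubule markers fell in 2 of 14, Miox and Slc13a3, with Fbp1 at -0.34 (not called), and podocyte markers in 4 of 8, Podxl (-0.56) and Nphs1 (-0.65) among them. Relative to the mean of the 12 collecting duct markers, which differed by -0.06 in males and -0.10 in females, Krt8 was higher in mutants by 0.56 and 0.67 and Krt19 by 1.69 and 2.05 on the log2 scale.

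Injury and division markers moved with the keratins. Of 20 tubule injury genes tested 16 rose, among them Havcr1 (KIM-1, 6.33 ± 0.568), Timp1 (5.28 ± 0.49) and Tnfrsf12a (1.65 ± 0.181), with adjusted p of 1.8e-06, 1.9e-06 and 6.8e-06 (edgeR). Their summed level was 2847 to 11667 CPM in male mutants against 1738 to 2040 in male controls, and 3945 to 12691 against 3249 to 3772 in females. All but 1 of 12 proliferation genes rose, Bub1 (2.59), Top2a (2.37) and Ccna2 (1.89) among them. Of 6 parietal and mesothelial markers tested 4 rose, Cldn1 (1.18) and Akap12 (1.22) among them, while Wt1, also a podocyte marker, fell by 0.49. The part of these cell types and states in the keratin differences was not tested.

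Urothelium of the renal pelvis makes Krt7, Krt8, Krt18, Krt19 and Krt20, and its markers differed from mouse to mouse. The summed level of Upk1a, Upk1b, Upk2 and Upk3a, the uroplakins of umbrella cells, was 3.3 to 20.1 CPM in male controls, 3.6 to 22.6 in male mutants, 4.2 to 30.2 in female controls and 8.1 to 44.6 in female mutants. None of the 4 was called, with log2 fold changes of 0.06 to 0.53, and Trp63, a basal cell factor, differed by -0.07. Over the whole urothelial list of 13 genes, 11 were tested and 1 rose, Upk3b (0.96 ± 0.258, adjusted p = 0.00937, edgeR), which mesothelium also makes. The median log2 fold change of the list was 0.53, against -0.01 for all genes. It was 0.06 in males and 0.91 in females. Psca, a surface antigen of urothelium, was higher by 1.32 ± 0.442 without being called (adjusted p = 0.0343, edgeR), with 0.66 to 16.2 CPM in male controls, 5.12 to 44.8 in male mutants, 1.2 to 25.6 in female controls and 7.87 to 39.6 in female mutants. The list summed to 24.4 to 73.9 CPM in male controls, 32.5 to 119 in male mutants, 20.2 to 92.5 in female controls and 37.3 to 142 in female mutants.

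Female control 3, the control with the most Krt20, also had the highest uroplakin sum of the controls, at 30.2 CPM. Male mutant 1, with the most Krt20 of all mice, had a uroplakin sum of 4.19 CPM, and male mutant 3, with 12.1 CPM of Krt20, had 3.6 CPM. Krt20 per unit of uroplakin was at most 0.0267 in male controls and at least 0.336 in male mutants. In females it was at most 0.0469 in controls, which female mutant 4 equalled, and 0.297 or more in the other mutants. With the mean log2 uroplakin level as a covariate, the log2 fold changes over both sexes were 0.57 for Krt8, 1.03 for Krt18 and 1.79 for Krt19, and the same 3 members were called. This covariate was chosen after seeing the data and holds umbrella cell genes of low level, not urothelium as a whole. The ratios above use the Krt20 values it was picked for. The part of urothelium in the keratin differences was not tested.

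**Figure D5:**
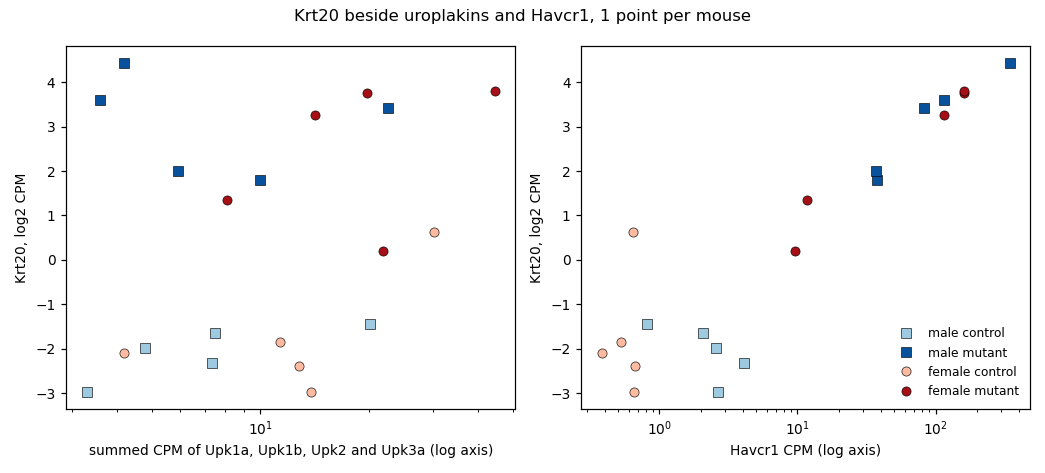
Log2 CPM of Krt20 (vertical axes) against the summed CPM of 4 uroplakins (left, log axis) and against Havcr1 CPM (right, log axis), 1 point per mouse, squares male and circles female. Mutants hold 3.6 to 44.6 CPM of uroplakins and all but female mutant 4 (1.03 CPM of Krt20) lie above every control in Krt20, while male mutant 1 has the most of both Krt20 (21.6 CPM) and Havcr1 (345 CPM).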

How the data were processed

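Counts were deposited as whole numbers of reads per gene symbol and mouse, without normalization; the authors had cut reads by fastp 0.23.2 and mapped them by STAR 2.7.10b on mm10, and the counting tool, annotation and strand setting are not given in the sources used here. Gene members and gene lists were chosen with earlier results of these data known. Genes named are the 7 members, other keratins that were tested, the 3 genes of smallest p in each list, set marker genes, and the 3 nearest genes of each member; Pkp4, Dsp, Jup, Dsg2, Cldn4, Klf5, Epcam, Cdh1 and Upk1b lie outside that rule and were named after their values were seen, and 1 gene that the rule names is not reported here.

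Counts were normalized by TMM in edgeR 4.0.16 (R 4.3.3), filtered by filterByExpr and tested by the quasi-likelihood test with Benjamini-Hochberg adjustment over all genes tested; an adjusted p under 0.01 was a call. Litter was a covariate within a sex or genotype, the 6 groups of sex and litter over all mice, and sex for the slope on KBW. The SE is the log2 fold change over the root of its F statistic, and intervals are 1.96 SE. CPM used TMM library sizes, log2 CPM a prior count of 2. Scripts were tested on simulated counts with 200 changed genes. DESeq2 1.42.0, other filters and scaling, other covariates and each mouse left out served as alternatives.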

Additional observations from a re-analysis of the deposited data

Results flagged for a closer look

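Each member and the Krt8 to Krt18 ratio was checked in each group of 5 mice for 1 mouse far from the others, in 32 checks, of which chance flags about 1 in 20. There were 2 such values. Krt20 in female control 3 was 1.41 CPM, where the next control had 0.151 CPM, and the same mouse had the highest uroplakin sum of the controls. Krt80 in male mutant 4 was 16.3 CPM, where the next male mutant had 10.5 CPM, and that mouse had the highest uroplakin sum of the male mutants, at 22.6 CPM.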

How the results depend on the processing

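No paired analysis was possible because the replicate numbers follow the order of the samples and tie no mouse of one group to a mouse of another. Of 925 fold changes or slopes of single members recomputed under an alternative, 894 counted as unchanged. These kept their side of the threshold. Krt20 in mutants against controls had no test and counted as unchanged if it moved by less than the spread between mice. A further 24 passed the threshold only under the alternative, and 4 no longer passed it. The other 3, all of Krt20, moved by more than that spread. The cause of these changes was not tested. Of the 894, 51 turned in sign, none of them called with either setting, mostly in the sex-by-genotype term and for Krt23, whose log2 fold change reached -0.15 in males and -0.17 in females. The 3 members called over both sexes stayed 3 under every scaling, filter and covariate tried, with 4 under DESeq2 and 3 to 4 with a mouse left out; they were also called without female mutant 4 and female control 3 together, without litter C and with the uroplakin covariate, which were chosen after seeing the data. In males the count of 0 became 1 with DESeq2 and without the litter term, 3 without a filter, and 0 to 3 with a mouse left out (3 without male mutant 2; 1, Krt19, without male control 5 or male mutant 5). In females it became 3 with DESeq2 and 2 with all 20 mice in 1 fit, and stayed 0 with any mouse left out. The call between control sexes was 0 to 1 with a mouse left out; that between mutant sexes became 1 with DESeq2, without a filter and with all 20 mice in 1 fit, and 0 to 1 with a mouse left out. The KBW count became 2 with DESeq2, and without the sex term, as given above, its slopes fell. The Krt8 to Krt18 difference ranged from -0.78 to -0.48 in males and from -0.55 to -0.33 in females with a mouse left out, and the difference of medians in females was -0.56 (exact permutation p = 0.0476). Depth limits Krt20 in controls, where most libraries held 3 counts or fewer.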
